A study of Mus musculus with 24 samples.

Results

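The genes described here are 10 heat shock genes of mouse liver that the heat shock factor HSF1 is known to induce: Hspa1a, Hspa1b, Hspa8, Hsph1, Dnajb1, Bag3, Hsp90aa1, Hspb1, Hspd1 and Hspe1. They were chosen by name, and every probe whose deposited accession maps to one of these symbols was described. The array carried 15 such probes among 41174 non-control probes. They stand for 9 of the 10 genes, since Hspa1b was matched by no probe and is not analysed here. Of these 9 genes, 8 had values on enough arrays of both groups in the comparisons of E8w, E8w1B and the 8-week pair-fed group, 9 in the 10-day comparison and 5 in each comparison with E8wMB, because spots that the scanner software marked as outliers were left out.

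Heat shock proteins are chaperones that keep other proteins folded. The inducible Hsp70 Hspa1a works with J-domain partners such as Dnajb1, which deliver the client and stimulate ATP hydrolysis, and with nucleotide exchange factors such as Hsph1 and Bag3, which release it. HSF1 is held inactive by chaperones in unstressed cells, and on heat or other proteotoxic stress it forms trimers that bind repeats of the pentamer nGAAn upstream of these genes. Hspa8 is the constitutive member of the Hsp70 family, Hsp90aa1 the inducible cytosolic Hsp90 and Hspb1 a small heat shock protein. Hspd1 and Hspe1 encode the mitochondrial chaperonin and its cochaperonin, so these 2 genes are not cytosolic chaperones, although they belong to the same heat shock response.

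Liver RNA of male C57BL/6N mice was hybridised on 24 Agilent 2-colour arrays in 6 groups. P8w mice were pair fed for 8 weeks (n = 4) and P10d mice for 10 days (n = 3), as controls without ethanol. E8w mice had an ethanol diet for 8 weeks (n = 5), E10d1B mice had it for 10 days with 1 binge of 5 g/kg ethanol (n = 3), and E8w1B mice had it for 8 weeks with 1 binge of 5 g/kg (n = 5). E8wMB mice had the diet for 8 weeks with binges of 5 g/kg given 2 times per week (n = 4). Age, the time between a binge and tissue collection and the makeup of the pair-fed diet are not given in the sources used here, and the labels name no altered allele. The labels do not say that the replicates of a group were separate animals, so each p-value measures only the spread between these samples, which may be technical.

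The liver RNA carried the dye Cy5 on every array and a common reference RNA carried Cy3, with no dye swap. In the labels the reference is a purchased RNA of assorted mouse tissues, but its tissue field says liver, so its makeup is uncertain. A level below is log2 of the liver signal over the reference signal (the log2 ratio): 0 means as much signal as in the reference, and -1 means a ratio 1 step of log2 lower. A difference between groups is the difference of their mean log2 ratios, with its standard error (SE), and p-values are adjusted over all genes of the comparison. In bulk liver, fewer cells of a type and less RNA per cell cannot be told apart.

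Median spot signals lay between 95.5 and 247 units in Cy5 and between 161.5 and 505 in Cy3 over the 24 arrays, and 70.4 to 86.7% of probes were well above background in Cy5. The scanner software marked 1.52 to 7.78% of spots. The arrays fell into 3 scans: P8w, E8w and E8w1B were in scan 1, P10d and E10d1B in scan 2, and E8wMB alone in scan 3, so that E8wMB and its scan cannot be told apart. All 6 hepatocyte markers that were kept were well above background in Cy5 on 24 of 24 arrays. The probe used for each of the 9 heat shock genes was well above background on 24 of 24 arrays as well, with 0 saturated spots.

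Upstream windows of 250 bases before the annotated start were matched for 8 of the 10 genes, 11 windows in all, from RefSeq on build GRCm38.p6. Hspa8 and Hsp90aa1 had no entry. They are shown because the members share a regulator whose binding unit is known, and so that the members lower in E8w1B than in P8w, below, can be set beside the others by sequence. The motif searched was 2 facing units, GAANNTTC or TTCNNGAA, each of which reads the same on both strands. It was found in 7 of the 11 windows, against 12.8% of all 32851 windows of the same length, and in 6 of the 8 genes. The genes were listed because HSF1 induces them, so these counts are no test of that. The matches are also not independent: both Hsph1 windows hold the same match, Hspd1 and Hspe1 share another, and the Hspa1a and Hspa1b windows are near-identical. Capitals mark the motif in the sequences that follow, each printed 5′ to 3′ on the strand of its gene. The whole window of Hspa1a, at chr17:34972157-34972406 on the minus strand, is:
Hspa1a: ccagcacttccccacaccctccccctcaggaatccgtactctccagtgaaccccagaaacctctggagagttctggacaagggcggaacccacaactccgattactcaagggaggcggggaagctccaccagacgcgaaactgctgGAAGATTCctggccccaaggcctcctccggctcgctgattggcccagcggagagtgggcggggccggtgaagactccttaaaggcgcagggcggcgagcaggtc
The Hspa1b window, at chr17:34959239-34959488 on the minus strand, was 98.8% identical. It differed from that of Hspa1a at 3 of 250 bases, counted from 1 at the 5′ end of the window, by C44T, T47C and T249G, where the first letter is Hspa1a's. None of these changes lay in the motif, which began 104 bases before the start in both genes.

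For the other members that held a match, 30 bases around it are given. Hsph1 lies at chr5:149636351-149636380 (minus strand), Hspb1 at chr5:135887801-135887830 (plus strand), and Hspd1 and Hspe1 share chr1:55088053-55088082, Hspd1 on the minus and Hspe1 on the plus strand:
Hsph1: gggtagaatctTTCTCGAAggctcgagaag
Hspb1: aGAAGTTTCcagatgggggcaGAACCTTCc
Hspd1: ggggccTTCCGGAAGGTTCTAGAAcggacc
Hspe1: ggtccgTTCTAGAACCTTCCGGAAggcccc
Hspd1 and Hspe1 are transcribed away from each other, and the run of 18 bases in capitals is the same stretch read on opposite strands. This run also held the motif of 3 units, GAANNTTCNNGAA or TTCNNGAANNTTC, which 0.466% of all windows held (153 windows). The windows of Dnajb1 and Bag3 did not hold these letters, which says nothing of HSF1 at those genes. Each match is a description of the sequence and not a measured binding site.

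Several members were lower after 8 weeks of ethanol plus 1 binge than after 8 weeks of pair feeding. Compared with 8-week pair feeding, 4 of the 8 members tested were lower and 0 were higher in limma's test: the inducible Hsp70 Hspa1a, the constitutive Hsp70 Hspa8, the exchange factor Hsph1 and the J-domain protein Dnajb1. In the same comparison 16.2% of 15740 genes were called, against 4 of 8 members. The median difference of the 8 members was -0.47 on the log2 scale, against 0.02 over all genes. Bag3, Hspb1, Hspd1 and Hspe1 did not pass.

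Against 8 weeks of ethanol without the binge, E8w1B was lower for 2 of the 8 members, Hspa8 and Dnajb1, and higher for 0, where 16.4% of 15857 genes were called. E8w against P8w gave 0 calls among 8 members in limma, with 3 members at an unadjusted p under 0.05, and only 0.153% of 15691 genes were called there. With the marked spots kept, 1 of 9 members, Hspa1a, passed as lower in E8w, where 0.254% of genes were called. The 10-day binge against 10-day pair feeding gave 0 calls among 9 members, with 5 at an unadjusted p under 0.05 and 7.21% of 15692 genes called. E8w and E8w1B were compared with the same P8w arrays, and the 3 groups lay in 1 scan.

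**Figure D1:**
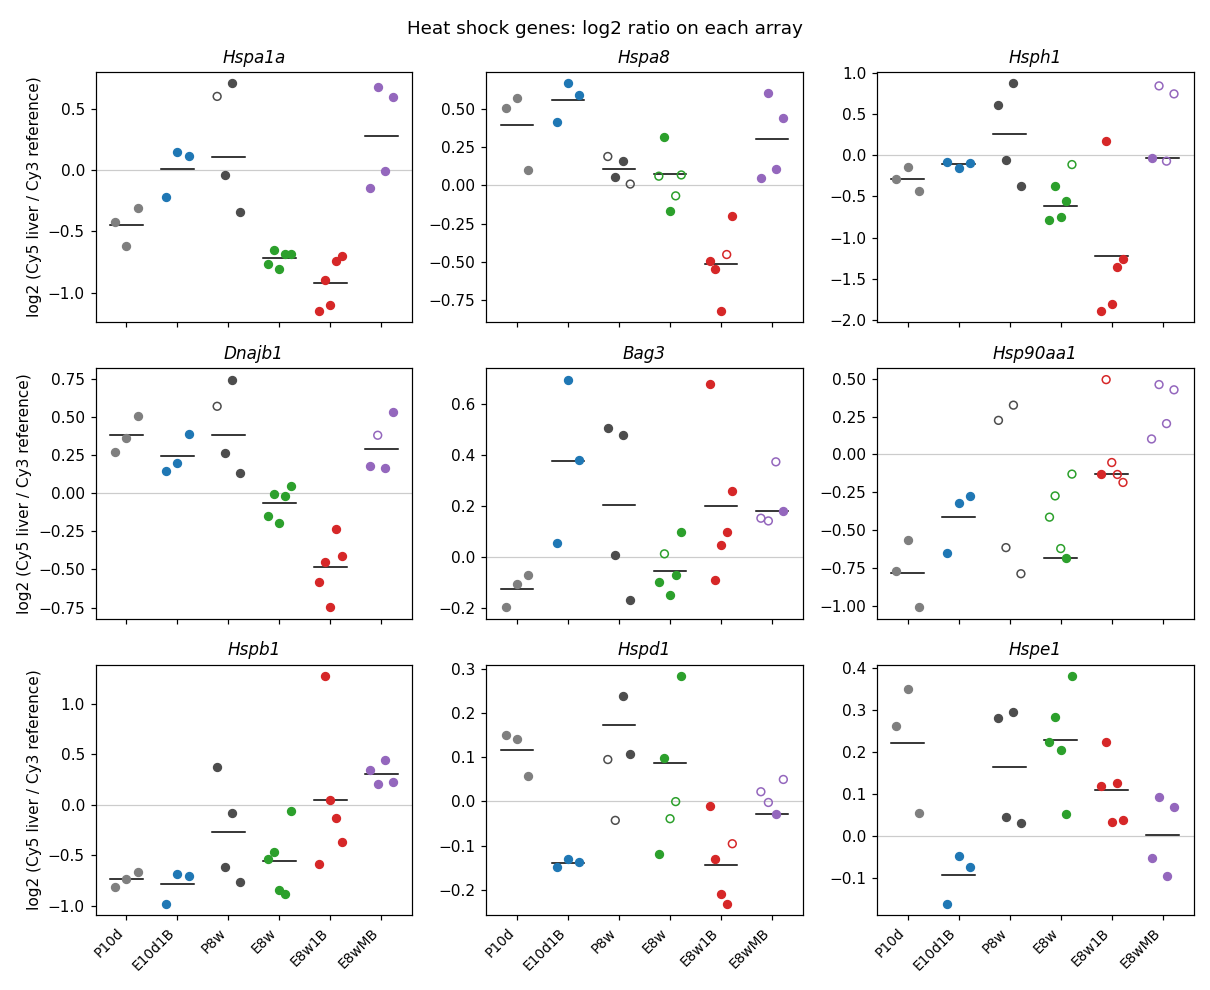
Log2 ratio of liver Cy5 over reference Cy3 (vertical axis) for each of the 9 measured members, 1 panel per gene, with 1 point per array in the 6 groups, open points for spots marked by the scanner software, and bars at group means over the filled points. Hspa1a and Dnajb1 are lower on all 5 E8w1B arrays than on every measured P8w array.

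Hspa1a, the strictly inducible cytosolic Hsp70, was lower on every E8w and E8w1B array than on the P8w arrays. Its SD was 0.54 in P8w and 0.06 in E8w. On P8w replicates 2, 3 and 4 its log2 ratio was -0.04, 0.72 and -0.34, and it was 0.61 on replicate 1, whose spot was marked and left out of the mean. It was -0.76, -0.65, -0.81, -0.69 and -0.68 on the 5 E8w arrays. On the 5 E8w1B arrays it was -1.15, -0.89, -1.10, -0.74 and -0.70. All ethanol-fed arrays of both groups lay below all P8w arrays, and E8w and E8w1B overlapped each other. E8w1B was lower than P8w by -1.03 ± 0.19 (SE), a 2.04-fold ratio (limma, adjusted p = 0.00066). The difference was negative on 4 of 4 slides that held both groups, from -1.82 to -0.36. E8w was lower than P8w by -0.83 ± 0.19, which did not pass (limma, adjusted p = 0.0861), although it was negative on 4 of 4 slides too. Without P8w replicate 4, this difference was -1.06 with an adjusted p of 0.0343, and with the marked spot kept it was -0.97 with an adjusted p of 0.0238.

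In the 10-day mice, Hspa1a ran the other way. Its log2 ratio was -0.42, -0.62 and -0.31 on the P10d arrays and -0.22, 0.15 and 0.12 on the E10d1B arrays. The groups did not overlap, which can arise easily with so few arrays. The difference was 0.47 ± 0.22 and did not pass (limma, adjusted p = 0.231). The test of whether the effect of ethanol plus 1 binge differed between 8 weeks and 10 days gave -1.50 ± 0.29 for Hspa1a (limma, adjusted p = 0.0036). Of the 8 members tested for this difference between durations, 2 were called, both in the negative direction, where 3.35% of 15457 genes were called. The 8-week values were taken in scan 1 and the 10-day values in scan 2, each difference within its own scan. With slide as a block the Hspa1a value was -1.62 with an adjusted p of 0.0729, and with median centring in place of loess it was -1.40 with an adjusted p of 0.0524.

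The array carried 4 Hspa1a probes, which share the accession of 1 transcript. Hspa1a and Hspa1b are near-identical, so the probes may read both genes. The brightest probe was marked on all 4 P8w arrays and was therefore not used. The 2 dim probes were well above background on 0 of 5 and 2 of 5 E8w arrays against 4 and 3 of 4 P8w arrays and 4 of 5 E8w1B arrays each. They were not well above background on any 10-day array, so no difference is drawn from them.

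Hspa8, the constitutive Hsp70 that carries most of the Hsp70 work in unstressed cells, gave the brightest signal of the members. Its log2 ratio was 0.05 and 0.16 on the P8w arrays that were measured, 2 and 3, and 0.32 and -0.17 on E8w arrays 2 and 3. It was -0.49, -0.55, -0.82 and -0.20 on E8w1B replicates 1, 2, 3 and 5. The E8w1B arrays lay below every measured array of P8w and E8w. E8w1B differed from P8w by -0.62 ± 0.19 and from E8w by -0.59 ± 0.19 (limma, adjusted p = 0.0319 and 0.0404). These calls rested on few arrays: without E8w1B replicate 2 or 3 the first was -0.61 and -0.52 (adjusted p = 0.0543 and 0.0832), and without E8w1B replicate 1, 2 or 3 the other was -0.60, -0.58 and -0.49 (adjusted p = 0.0590, 0.0672 and 0.104). With marked spots kept, all 4 P8w arrays lay between 0.01 and 0.19 and all 5 E8w1B arrays between -0.77 and -0.18. The difference was then -0.60 with an adjusted p of 0.0017. At 10 days Hspa8 was 0.50, 0.57 and 0.10 in P10d and 0.41, 0.67 and 0.59 in E10d1B, which overlapped (difference 0.16, limma adjusted p = 0.705).

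Hsph1, a large Hsp70 relative that acts as a nucleotide exchange factor, had the largest of the 4 differences. The 4 P8w arrays had log2 ratios of 0.62, -0.06, 0.88 and -0.37. It was -0.79, -0.37, -0.75 and -0.55 on E8w replicates 1 to 4 and -0.11 on the marked spot of replicate 5, and on the E8w1B arrays it was -1.89, 0.17, -1.80, -1.36 and -1.26. E8w1B replicate 2 lay within the P8w range, and the other 4 E8w1B arrays lay below every P8w and E8w array. E8w1B was lower than P8w by -1.49 ± 0.31, a 2.81-fold ratio (limma, adjusted p = 0.0020). Without E8w1B replicate 2, Hsph1 was also called against E8w (-0.96, limma adjusted p = 0.0032) and in the difference between durations (-2.02, adjusted p = 0.00095). With that array these were -0.61 and -1.67 (adjusted p = 0.208 and 0.0675). The same array had the lowest summed level of 2 hepatocyte markers in its group, 1.16 against 1.40 to 1.66 in log2 of the summed ratios, and the highest for stellate cell markers, 2.47 against 1.55 to 2.30. Their part in the result was not tested.

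Dnajb1, the J-domain partner that stimulates Hsp70, was also lower in E8w1B. Its log2 ratio was 0.26, 0.74 and 0.13 on P8w replicates 2 to 4, and 0.57 on the marked spot of replicate 1. It was -0.15, -0.0074, -0.20, -0.02 and 0.04 on the E8w arrays, and -0.58, -0.45, -0.75, -0.23 and -0.41 on the E8w1B arrays. The 3 groups formed an order without overlap, with P8w highest, E8w in the middle and E8w1B lowest. E8w1B differed from P8w by -0.86 ± 0.13 and from E8w by -0.42 ± 0.11 (limma, adjusted p = 8.9e-05 and 0.0122), negative on 4 of 4 and 5 of 5 slides that held both groups. Both calls held without any 1 array, with highest adjusted p of 0.0013 and 0.0424. The step from P8w to E8w, -0.44 ± 0.13, did not pass (limma, adjusted p = 0.247). The dimmer Dnajb1 probe gave -0.39 for E8w1B against P8w, with an adjusted p of 0.0743. The 10-day groups overlapped, at 0.27, 0.36 and 0.51 in P10d and 0.15, 0.19 and 0.39 in E10d1B. The difference between durations was -0.73 ± 0.20 (limma, adjusted p = 0.0414), and it was called in 5 of the 15 fits that left out 1 array, with a highest adjusted p of 0.133. The value was -0.75 with slide as a block, -0.63 with median centring and -0.18 with the dimmer probe, and none of these passed (adjusted p = 0.193, 0.525 and 0.794).

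**Figure D2:**
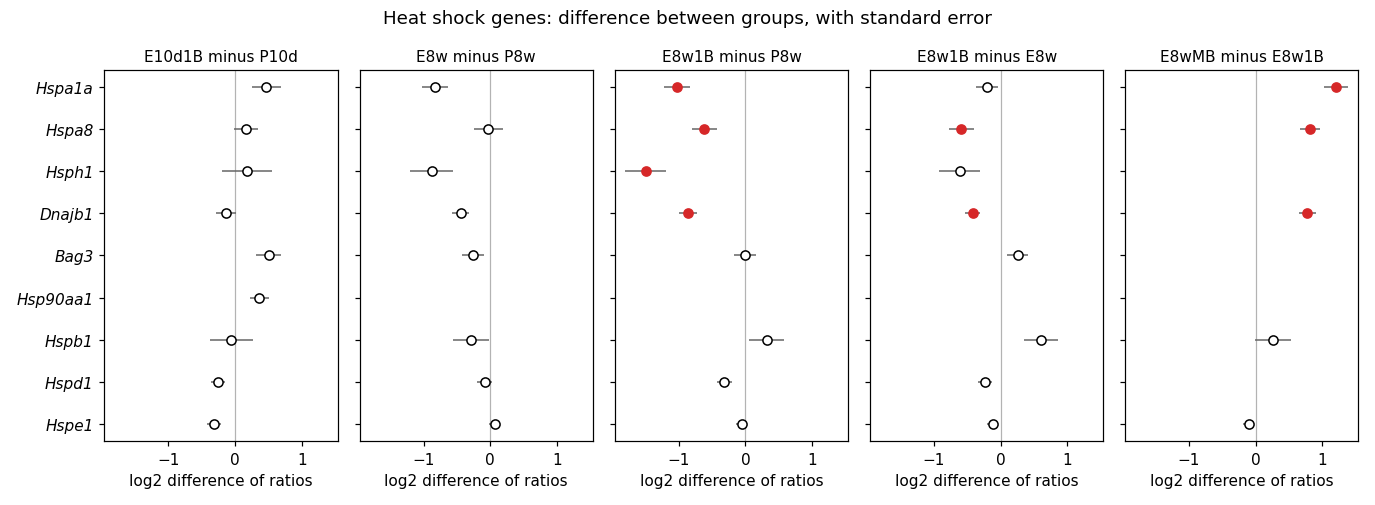
Difference in mean log2 ratio between groups (horizontal axis) for each member tested, with bars of 1 standard error from limma, 1 panel for each of 5 comparisons; filled points passed an adjusted p of 0.05. In E8w1B minus P8w the filled points are Hspa1a, Hspa8, Hsph1 and Dnajb1, from -1.49 to -0.62.

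Bag3, a cochaperone that links Hsp70 to small heat shock proteins and to autophagy, was not called in E8w1B. Its log2 ratio was 0.50, 0.0058, 0.48 and -0.17 on P8w arrays and 0.68, -0.09, 0.05, 0.10 and 0.26 on E8w1B arrays, and the difference was -0.0056 ± 0.16 with a 95% interval from -0.34 to 0.33 (limma, adjusted p = 0.988). At 10 days Bag3 was -0.20, -0.11 and -0.07 in P10d and 0.06, 0.70 and 0.38 in E10d1B. Every E10d1B array was higher than every P10d array, and the difference of 0.50 ± 0.19 did not pass (limma, adjusted p = 0.135). Bag3 and Hspa1a were both higher on every E10d1B array than on every P10d array, as levels that failed the correction. With so few arrays in a group such separation can arise easily, and its share over all genes was not counted.

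Hsp90aa1, the inducible cytosolic Hsp90 that matures kinases and steroid receptors, was marked by the scanner software on 16 of 24 arrays. Only its 10-day difference could be tested with marked spots left out. It was -0.77, -0.56 and -1.01 in P10d and -0.65, -0.32 and -0.27 in E10d1B, which overlapped (0.37 ± 0.15, limma adjusted p = 0.210). With marked spots kept, its log2 ratio was 0.22, -0.61, 0.33 and -0.79 in P8w, -0.41, -0.27, -0.62, -0.69 and -0.13 in E8w and -0.14, 0.49, -0.05, -0.13 and -0.18 in E8w1B. These groups overlapped, and E8w1B differed from P8w by 0.21 ± 0.19 (limma, adjusted p = 0.528).

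Hspb1, a small heat shock protein that holds unfolded clients without ATP, overlapped between P8w, E8w and E8w1B. It was 0.38, -0.62, -0.08 and -0.76 on P8w arrays, -0.54, -0.47, -0.84, -0.88 and -0.06 on E8w arrays, and -0.59, 1.28, 0.05, -0.13 and -0.37 on E8w1B arrays. E8w1B replicate 2 was the highest of all, as it was for Hsph1 within its group. E8w1B differed from P8w by 0.32 ± 0.26 and from E8w by 0.61 ± 0.25 (limma, adjusted p = 0.485 and 0.105). Without E8w1B replicate 1 the difference from E8w was 0.77 with an adjusted p of 0.0393. The 10-day levels were -0.81, -0.73 and -0.67 in P10d and -0.98, -0.68 and -0.71 in E10d1B, which overlapped.

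The mitochondrial pair, Hspd1 and Hspe1, moved by small amounts with a narrow spread. Hspe1 was 0.26, 0.35 and 0.05 in P10d and -0.16, -0.05 and -0.07 in E10d1B, with no overlap, and the difference of -0.32 ± 0.10 did not pass (limma, adjusted p = 0.0567). Without P10d replicate 3 it was -0.40 with an adjusted p of 0.0275. Hspd1 was 0.15, 0.14 and 0.06 in P10d and -0.15, -0.13 and -0.14 in E10d1B, again with no overlap (-0.26 ± 0.11, limma adjusted p = 0.181). Hspd1 and Hspe1 were lower on each E10d1B array than on each P10d array, and Hspa1a and Bag3 higher, but none of these differences passed. With 3 arrays in each group such separation can arise easily, and the share of all genes that show it was not counted.

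After 8 weeks neither gene was called. Hspe1 was 0.28, 0.05, 0.30 and 0.03 in P8w, 0.22, 0.28, 0.20, 0.05 and 0.38 in E8w and 0.12, 0.22, 0.03, 0.13 and 0.04 in E8w1B, and E8w1B differed from P8w by -0.06 ± 0.08 (limma, adjusted p = 0.726). Hspd1 was 0.24 and 0.11 on P8w replicates 3 and 4, -0.12, 0.10 and 0.29 on E8w replicates 1, 2 and 5 and -0.0093, -0.13, -0.21 and -0.23 on E8w1B replicates 1 to 4. E8w1B lay below both measured P8w arrays, by -0.32 ± 0.11, which did not pass (limma, adjusted p = 0.0667). Without E8w1B replicate 1 this was -0.36 (adjusted p = 0.0448), and without E8w replicate 1 the difference from E8w was -0.34 (adjusted p = 0.0340). Whether the pair differed from each other was not tested.

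In the group with repeated binges, E8wMB, several members were higher than in the other 8-week ethanol groups as ratios, and here the scan cannot be told apart from the treatment. Against P8w, 0 of 5 members tested were called in limma, with 1 at an unadjusted p under 0.05 and 20.5% of 15406 genes called. Against E8w, 3 were higher and 1 was lower of 5, where 24.9% of 15494 genes were called. Against E8w1B, 3 of 5 were higher, where 29.4% of 15563 genes were called. With marked spots kept, which brings all 9 members in, the counts were 0 of 9 against P8w (21.3% of genes called), 5 higher against E8w (25.9%) and 4 higher against E8w1B (29.9%).

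Hspa1a in E8wMB was -0.14, 0.69, -0.0011 and 0.60, above every E8w and E8w1B array and within the P8w range. The difference was 1.01 ± 0.18 against E8w and 1.20 ± 0.18 against E8w1B (limma, adjusted p = 0.00046 and 6.7e-05). In Cy5 alone the differences from E8w and E8w1B were -0.01 and 0.16, neither called, while the reference differed by -1.02 and -1.04. Dnajb1 was 0.18, 0.16 and 0.53 on E8wMB replicates 1, 3 and 4, also above both groups, by 0.36 ± 0.13 and 0.77 ± 0.13 (limma, adjusted p = 0.0496 and 0.00024). The smaller of these Dnajb1 differences was called only in the fit without E8w replicate 5 when 1 array was left out, with a range from 0.24 to 0.42. Hspa8 was 0.05, 0.60, 0.10 and 0.44 in E8wMB, above every measured E8w1B array, by 0.81 ± 0.15 (limma, adjusted p = 0.0010).

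Hspb1 in E8wMB was 0.35, 0.21, 0.44 and 0.23, a tighter and higher set than in E8w, by 0.87 ± 0.26 (limma, adjusted p = 0.0192). Without E8wMB replicate 3 it was 0.82 with an adjusted p of 0.0528. Hspb1 against P8w was called only without P8w replicate 1 (0.79, adjusted p = 0.0486), and against E8w1B only without E8w1B replicate 2 (0.57, adjusted p = 0.0360). Hspe1, the mitochondrial cochaperonin, was the member called lower, at -0.05, 0.09, -0.09 and 0.07 in E8wMB, by -0.23 ± 0.08 against E8w (limma, adjusted p = 0.0469). It stayed called without E8w replicate 4 and without E8wMB replicate 2 and in no other fit that left out 1 array, with values from -0.27 to -0.19.

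Hsph1 and Hsp90aa1 could be compared with E8wMB only with marked spots kept. Hsph1 was then -0.03, 0.84, -0.07 and 0.75, higher than E8w by 0.90 and than E8w1B by 1.61 (limma, adjusted p = 0.0350 and 0.00057). Hsp90aa1 was 0.10, 0.46, 0.20 and 0.43, higher than E8w by 0.72 (limma, adjusted p = 0.0086). Bag3 was 0.15, 0.14, 0.37 and 0.17 and Hspd1 lay between -0.02 and 0.05, and neither was called against E8w (0.26 and -0.03, limma adjusted p = 0.190 and 0.787).

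Each channel alone can be set beside the ratio within a scan. Between scans the reference itself differed, as given below, so a single channel cannot separate liver from scan there. The mean log2 signal of Hspa1a in the reference was 10.35 ± 0.21 (SD, n = 4) in P8w, 10.41 ± 0.10 (n = 5) in E8w and 10.43 ± 0.23 (n = 5) in E8w1B. It was 9.41 ± 0.17 (n = 3) in P10d, 9.31 ± 0.03 (n = 3) in E10d1B and 9.39 ± 0.09 (n = 4) in E8wMB. The reference was thus about level within scan 1 and lower in the other scans. In liver, Hspa1a gave 10.58 ± 0.41 in P8w, 9.68 ± 0.10 in E8w and 9.51 ± 0.36 in E8w1B, against 8.95 ± 0.03 in P10d, 9.32 ± 0.19 in E10d1B and 9.67 ± 0.38 in E8wMB.

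With Cy5 alone, E8w1B minus P8w was -1.05 for Hspa1a, -1.38 for Hsph1 and -0.99 for Dnajb1 (limma, adjusted p = 0.0021, 0.0128 and 0.00017), and -0.68 for Hspa8, which did not pass (adjusted p = 0.0608). E8wMB minus E8w was -0.01 for Hspa1a (limma, adjusted p = 0.965), against 1.01 as a ratio. Its E8wMB minus E8w1B was 0.16 (adjusted p = 0.493), against 1.20 as a ratio, and its E8wMB minus P8w was -0.88 (adjusted p = 0.0019). For Dnajb1, whose reference mean was 10.34 in E8wMB and 9.50 to 9.95 in the other groups, E8wMB minus E8w was 0.82 in Cy5 (adjusted p = 0.00010). So the Dnajb1 and Hspb1 differences of E8wMB from E8w kept their direction in Cy5, at 0.82 and 1.11, and that of Hspa1a did not. These Cy5 differences cross scans, so they do not show which ratio reflects the liver.

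Hspe1 showed the widest gap between scans, and Bag3 showed a smaller one. The mean log2 reference signal of Hspe1 was 13.02 ± 0.05 (SD, n = 4) in E8wMB and 11.40 to 11.57 in the other groups, and its liver signal was 13.04 ± 0.04 against 11.43 to 11.76. Before normalization the reference median spot signal of Hspe1 was 9722.5 to 19743.5 units on the E8wMB arrays and 1739 to 4924 on the other 20, with no overlap. Bag3 had a reference mean of 11.71 in E8wMB and 10.52 to 10.85 elsewhere. In Cy5 alone Hspe1 was higher in E8wMB than in P8w, E8w and E8w1B by 1.39, 1.39 and 1.53 (limma, adjusted p = 3.1e-08, 1.1e-08 and 4.0e-09), while as a ratio the differences were -0.16, -0.23 and -0.10. With Cy5 alone, 50.2%, 52.6% and 52.2% of genes were called in these comparisons.

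**Figure D3:**
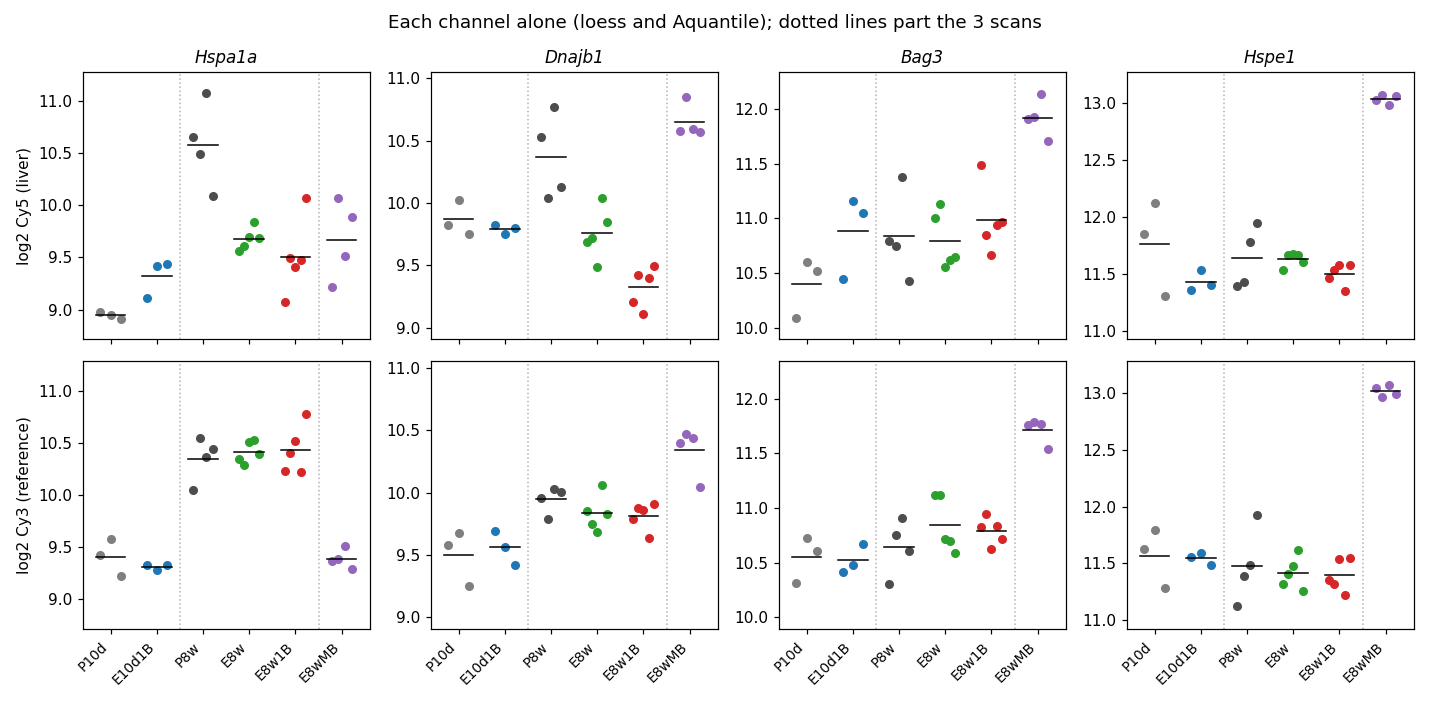
Normalized log2 signal of Hspa1a, Dnajb1, Bag3 and Hspe1 in the liver channel (Cy5, upper panels) and the reference channel (Cy3, lower panels), with 1 point per array, bars at group means and dotted lines between the 3 scans. Both channels of Hspe1 and Bag3 sit higher in E8wMB than in the other 5 groups, and the Hspa1a reference is near 10.4 in P8w, E8w and E8w1B and near 9.4 elsewhere.

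The pair-fed groups of different length gave no call for the members as ratios. P8w minus P10d gave 0 calls among 8 members in limma, with 1 at an unadjusted p under 0.05 (Hspa1a, 0.56 ± 0.22, adjusted p = 0.200) and 1.53% of 15571 genes called. In Cy5 alone Hspa1a was higher in P8w by 1.60 (limma, adjusted p = 0.00027), where 8.21% of genes were called. These groups lay in different scans, and the Hspa1a reference was higher in P8w by 1.04 over the spots that were not marked.

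Replicates of a group rose and fell together for many members. In P8w, replicates 1 and 3 were the higher arrays and 2 and 4 the lower for Hspa1a, Hspa8, Hsph1, Dnajb1, Bag3, Hsp90aa1, Hspb1 and Hspe1, with marked spots kept. Their Hspa1a values, for example, were 0.61 and 0.71 against -0.05 and -0.35. In E8wMB, replicates 2 and 4 were higher than 1 and 3 for Hspa1a, Hspa8, Hsph1, Dnajb1, Hsp90aa1 and Hspe1 and lower for Hspb1, and each of the 2 E8wMB slides held 1 higher and 1 lower array. E8w1B replicate 2 stood apart in Hsph1, Hspb1 and Hsp90aa1 and not in Hspa1a or Dnajb1.

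Over the 24 arrays the 36 pairs of members had Pearson r from -0.29 to 0.87 with a median of 0.20, and after each group's mean was taken off r ran from -0.04 to 0.88 with a median of 0.45. These are descriptions, and the points share the array, its normalization and the reference. Hspa1a and Dnajb1 gave 0.85 both ways, and Hsp90aa1 and Hspb1 gave 0.87 over arrays and 0.77 within groups. Hspe1 and Hsp90aa1 gave 0.88 within groups.

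**Figure D4:**
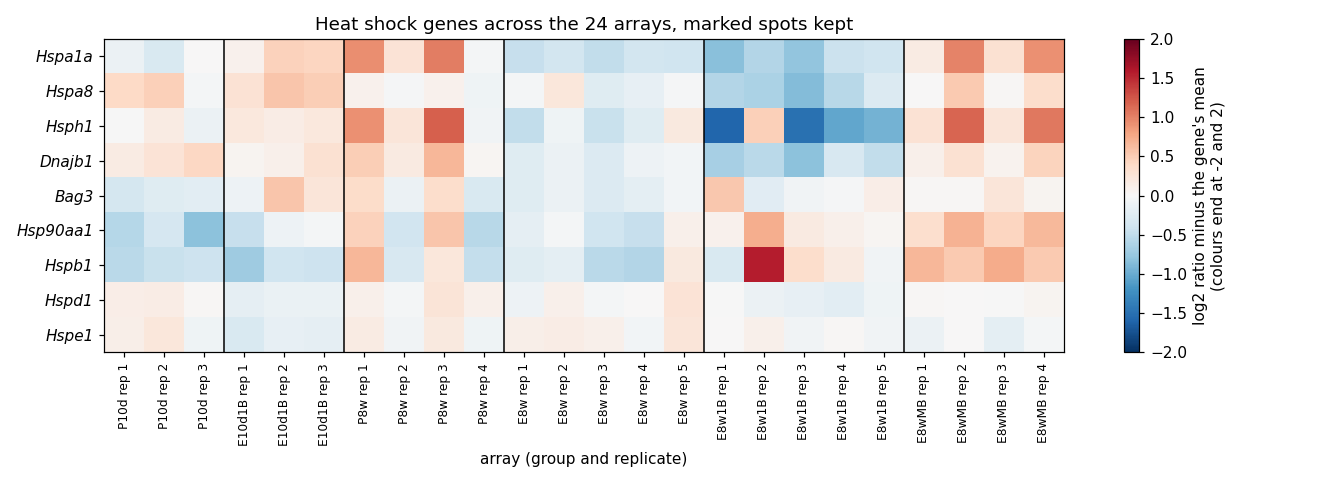
Log2 ratio of each member (a row each) on each of the 24 arrays (columns, ordered by group), marked spots kept, centred on the gene's mean; the colour scale gives the difference from that mean in log2. P8w replicates 1 and 3 and E8wMB replicates 2 and 4 are high for several members at once, and E8w1B replicate 2 is high for Hsph1, Hspb1 and Hsp90aa1.

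The genes most like the members were ranked by Pearson r with the members' mean profile over 24 arrays, among 15105 other genes. The 6 highest were P4ha1 (0.77), a collagen prolyl hydroxylase subunit, Ahsa1 (0.76), which activates the Hsp90 ATPase, Isg15 (0.76), an interferon-induced ubiquitin-like protein, and Map2k5 (0.73), Bud13 (0.73) and Kat6a (0.72). Within groups these were 0.62, 0.77, 0.61, 0.58, 0.48 and 0.51. Over the 14 arrays of P8w, E8w and E8w1B they were 0.84, 0.81, 0.76, 0.74, 0.79 and 0.74.

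Other chaperones and cochaperones of the cytosol and mitochondria moved both ways. Of 41 listed, 40 were kept. For this list and those below, the share of all genes called was 16.2% in E8w1B minus P8w, 16.4% in E8w1B minus E8w and 7.21% at 10 days. In E8w1B against P8w, 5 of 35 tested were higher and 8 lower, with a median of -0.13 against 0.02 over all genes. Those with the lowest adjusted p were Bag2 (0.53, limma adjusted p = 0.00028), an inhibitor of the ubiquitin ligase CHIP, the Hsp90 cochaperones Chordc1 (-0.75, 0.0012) and Ahsa2 (-0.49, 0.0014), and Bag5 (0.46, 0.0023). Against E8w, 4 of 36 were higher and 5 lower, led by Bag2 (0.53), the Hsp90-binding immunophilin Fkbp4 (-1.21), the chaperonin subunit Tcp1 (-0.43) and Hspa14 (0.60). The Hsp90 cochaperone Chordc1 was the 1 gene of 35 called in the difference between durations (-1.17, limma adjusted p = 0.0020). At 10 days 1 of 40 was higher, Hspa13 (1.28), and 2 were lower, Dnajb6 (-0.53) and Bag4 (-0.34). E8w against P8w gave 0 of 35 in limma, with 4 at an unadjusted p under 0.05. In E8wMB, the only group of its scan, 4 were higher and 1 lower of 31 against P8w, where 20.5% of all genes were called. Against E8w the counts were 5 and 1 of 32 (24.9% of all genes called), and against E8w1B 10 and 1 of 32 (29.4%). The list was thus called about as often as all genes in these comparisons. Against E8w1B the lowest adjusted p belonged to Ahsa2 (0.61), Ahsa1 (0.42), Fkbp4 (1.06) and Dnajb4 (0.53), and against E8w to Bag2 (0.56), Ahsa2 (0.45), Hspa13 (0.73) and Hspa4l (0.39).

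The transcripts of the HSF factors themselves and their regulators gave no call in the groups outside E8wMB. In E8w1B against P8w, E8w1B against E8w, E8w against P8w and at 10 days, 0 of 8 or 9 genes were called in limma, with 1, 0, 0 and 1 at an unadjusted p under 0.05. Hsf1, which is controlled mainly at the protein level, had a log2 ratio of -0.13 ± 0.09 (SD, n = 4) in P8w, 0.00055 ± 0.08 (n = 5) in E8w and -0.11 ± 0.06 (n = 5) in E8w1B. In E8wMB, the only group of its scan, Hsf2 was lower than in P8w, E8w and E8w1B by -0.54, -0.48 and -0.53 (limma, adjusted p = 0.0077, 0.0091 and 0.0040). Sirt1, a deacetylase of HSF1, was higher there than in E8w and E8w1B by 0.35 and 0.49 (adjusted p = 0.0306 and 0.0029). Of all genes, 20.5%, 24.9% and 29.4% were called against P8w, E8w and E8w1B. In Cy5 alone Hsf2 did not pass, at -0.52, -0.73 and -0.57 (limma, adjusted p = 0.260, 0.0874 and 0.189). Nor did Sirt1, at 0.17 and 0.25 (adjusted p = 0.600 and 0.422).

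Stress genes of other classes were compared in the same way. Among chaperones of the endoplasmic reticulum, which the unfolded protein response induces, 8 of 10 were higher after the 10-day binge, with a median of 1.37 and led by Dnajb9 (0.95), Creld2 (2.58), Manf (2.10) and Pdia6 (1.27). In E8w1B against P8w 0 of 7 were called in limma, with 3 at an unadjusted p under 0.05, and Pdia6 was called in the difference between durations (-1.53, adjusted p = 0.0180). Immediate early genes, which respond to growth factor and stress signals within minutes, were higher in E8w1B than in P8w for 5 of 12, led by Egr1 (3.44), Btg2 (1.67), Ier2 (0.87) and Junb (1.19), and lower for 0. At 10 days Egr1 was higher (2.30) and Zfp36 lower (-0.80). Among 7 or 8 oxidative stress genes of the NRF2 type, Osgin1 (1.79) and Txnrd1 (0.60) were higher at 10 days. In E8w1B against P8w Txnrd1 (0.76) and Nqo1 (0.78) were higher and Gclm (-0.67) lower.

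Genes that follow temperature and time of day are given beside these results, since heat shock genes are known to vary with both. The cold-inducible RNA-binding protein Cirbp was lower in E10d1B than in P10d, by -0.87 (limma, adjusted p = 0.0020). It was not called in E8w1B against P8w, and was called in the difference between durations (1.15, adjusted p = 0.0028). Its log2 ratio was 0.25 to 0.84 in P10d and -0.53 to -0.33 in E10d1B, with no overlap. The Hspa1a difference in this comparison, 0.47, did not pass (adjusted p = 0.231). Of the 3 genes of this list, Rbm3 and Srsf5 were not called at 10 days (-0.07 and -0.05, limma adjusted p = 0.855 and 0.961). In E8w1B against P8w Srsf5 was higher (1.31) and Rbm3 was not called (0.04, limma adjusted p = 0.878). Of 15 clock genes, 1 was higher and 5 lower in E8w1B against P8w, led by Dbp (-2.97), Tef (-1.26), Per3 (-0.82) and Nr1d1 (-1.21), and 2 were higher and 5 lower at 10 days, led by Tef (-0.98), Dbp (-2.25), Ciart (-1.23) and Per3 (-0.70). The part of temperature or time of day in the results on the heat shock genes was not tested.

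Markers of other liver cells also moved in E8w1B against P8w. Neutrophil markers were higher for 2 of 5 (S100a9 1.12, S100a8 0.61), and Csf3r, Retnlg and Mmp8 were not called (-0.29, 0.23 and 0.22). The S100a8 probe was well above background in Cy5 on only 11 of 24 arrays. The log2 of the summed neutrophil ratios over 4 genes was 1.55 to 1.80 in P8w and 1.73 to 2.59 in E8w1B. Sinusoidal endothelial markers were higher for 1 of 6 (Lyve1, 2.29) and lower for 3 (Clec4g, Fcgr2b and Kdr, -0.79 to -0.66), with summed levels of 2.50 to 2.59 and 2.13 to 2.77. Kupffer cell markers were lower for 2 of 6 (Cd5l -0.77, Adgre1 -0.68). Of the stellate cell markers 1 of 6 was lower (Reln, -0.67). The other stellate markers, not called, went the other way, from 0.02 to 0.88, and the list median was 0.22. Of the erythroid markers 1 of 3 was lower (Alas2, -1.22), while Slc4a1 and Hba-a1 were not called (0.08 and 0.08). The summed levels of these 3 lists in P8w and E8w1B were 2.23 to 2.95 and 2.19 to 2.62 for Kupffer cells, 1.75 to 2.04 and 1.55 to 2.47 for stellate cells and 1.58 to 1.96 and 1.07 to 1.65 for erythroid cells. Of hepatocyte, cholangiocyte and lymphocyte markers, 0 of 6, 0 of 5 and 0 of 5 were called in limma, with 2, 0 and 1 at an unadjusted p under 0.05. At 10 days, endothelial markers were higher for 3 of 6 (Fcgr2b 1.04, Lyve1 1.24, Clec4g 0.73), with summed levels of 2.12 to 2.25 in P10d and 2.70 to 2.78 in E10d1B. There, stellate markers were higher for 2 of 6 (Lrat 0.92, Dcn 0.63), lymphocyte markers for 2 of 5 (Cd3g 0.98, Nkg7 0.75) and hepatocyte markers for 1 of 6 (Ttr, 0.84). The part of cell makeup in the lower E8w1B levels of Hspa1a, Hspa8, Hsph1 and Dnajb1 was not tested.

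Some cell markers were called in the E8wMB comparisons too, where treatment and scan cannot be told apart. Of all genes, 24.9% were called against E8w and 29.4% against E8w1B, so a call was common there. As a ratio, the lymphocyte marker Nkg7 was higher than in E8w and E8w1B by 1.00 and 1.09. In Cy5 alone it was lower, by -1.08 and -0.88 (limma, adjusted p = 0.0011 and 0.0055). The neutrophil marker Retnlg was lower by -0.99 and -1.08 as a ratio and was not called in Cy5 alone (0.05 and -0.20). Other neutrophil markers went the other way as ratios: S100a8 was higher than in E8w (0.47) and Csf3r higher than in E8w1B (0.56). The macrophage marker Csf1r was lower by -0.42 and -0.49. Counts by list are given as called higher and called lower. Against E8w they were 0 and 0 of 6 hepatocyte, 0 and 1 of 7 Kupffer cell and 1 and 1 of 5 neutrophil markers. For endothelial and stellate markers they were 1 and 0 of 6 and 1 and 1 of 5. For cholangiocyte, lymphocyte and erythroid markers they were 0 and 0 of 5, 1 and 0 of 5 and 0 and 0 of 3. Against E8w1B, hepatocyte, Kupffer cell and neutrophil markers gave 1 and 0 of 6, 1 and 1 of 7 and 1 and 1 of 6. Endothelial and stellate markers gave 3 and 2 of 6 and 0 and 1 of 5. Cholangiocyte, lymphocyte and erythroid markers gave 0 and 1 of 5, 2 and 0 of 5 and 0 and 0 of 3. Within E8wMB, the log2 of summed ratios over 2 hepatocyte markers was 1.62 and 1.41 on replicates 2 and 4, where Hspa1a was high, and 2.08 and 2.12 on replicates 1 and 3. Over 6 endothelial markers it was 2.85 and 2.85 on replicates 2 and 4 and 2.43 and 2.41 on replicates 1 and 3. Immediate early genes gave 2.75 and 2.91 against 3.65 and 3.65, and 2 endoplasmic reticulum chaperones gave 1.70 and 1.74 against 1.11 and 1.13. Their part in the E8wMB values of the heat shock genes was not tested.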

How the data were processed

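The deposited scanner files hold, for both channels, the median intensity of each spot and of the background around it, made with Agilent Feature Extraction 11.5.1.1, per the submitters' processing notes, and a log10 ratio of Cy5 over Cy3, background-subtracted and dye-normalized per the file headers. The deposited series table holds log2 ratios of the authors. They tracked the scanner log ratio with a slope of 1.00 to 1.01 and a lowest r of 0.904. Column medians ran from -0.088 to 0.073. The table was used only as a check. No aligner or build applies. From the intensities, limma 3.58.1 in R 4.3.3 (statmod 1.5.0, data.table version 1.17.8) applied normexp (offset 50) and loess within arrays, leaving out control spots and those marked as outliers. For single channels Aquantile followed; channel means include marked spots, the Cy5 tests leave them out. A probe was kept if 3 or more arrays had it well above background in Cy5, which left 16161 genes with 1 probe each, the brightest among those with 2 or more values in every group or else the brightest. A gene was tested where measured on at least 2 arrays of both groups. One fit of 6 group means over 24 arrays (lmFit, eBayes) gave each difference, with Benjamini-Hochberg adjustment over all genes tested and calls at 0.05. The script was tested on simulated data.

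All listed members were named. Of the other lists, up to 4 called genes per list and comparison were named by lowest adjusted p; in marker lists every called gene was named where the text gives them. The genes most like the members were the 6 of highest r. The members and lists were chosen with earlier results of these data known. Symbols and upstream sequences came from RefSeq (GRCm38.p6). Replicate numbers were not used as pairs in the main fit. Same-numbered arrays of different groups had a median correlation of 0.028 in their deviations, others -0.0017, which cannot exclude a pairing. Some same-numbered arrays also shared a slide. With replicate as a block, P8w minus P10d gave 684 calls over all genes, against 239 in the main fit. Alternatives covered centring, the scanner's ratio, Cy5 alone, probe choice, marked spots, slide and replicate blocks, pairs of groups alone and leaving out each array. The number of arrays limits the precision.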

Additional observations from a re-analysis of the deposited data

Results flagged for a closer look

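Hspa1a and Dnajb1 are given here because the test of the difference between the durations of feeding passed for both under the processing used in the report, and not under every other. The effect of ethanol plus 1 binge on the log2 ratio, 8 weeks minus 10 days, was -1.50 for Hspa1a (limma, adjusted p = 0.0036) and -0.73 for Dnajb1 (adjusted p = 0.0414). For Hspa1a all 5 E8w1B arrays lay below all 3 measured P8w arrays, and all 3 E10d1B arrays lay above all 3 P10d arrays. With so few arrays such separation can arise easily, and its share over all genes was not counted. For Dnajb1 the 8-week groups did not overlap and the 10-day groups did. The 8-week arrays were in 1 scan and the 10-day arrays in another. With slide as a block the values were -1.62 and -0.75 (adjusted p = 0.0729 and 0.193), and with median centring -1.40 and -0.63 (adjusted p = 0.0524 and 0.525). When 1 array was left out, the Hspa1a call held in 15 of 15 fits and the Dnajb1 call in 5 of 15. Dixon's criterion for a far array, applied to the 22 sets of 4 or 5 unmarked values of 1 gene in 1 group, was met in 0 of them. Hsp90aa1 had no such set, and groups of 3 were not examined.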

How the results depend on the processing

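The number of members called changed with the processing as follows. In the 10-day comparison it was 1 with slide as a random block, and in E8w minus P8w it was 1 with marked spots kept. For the 4 genes with more than 1 probe, the other probe was put in, and some of these could not be tested for marked spots. In E8w1B minus P8w this left 1 call among 6 members tested, and a replicate block gave 5. In E8w1B minus E8w it was 0 of 7 with the other probe and 1 with median centring, the scanner log ratio, Cy5 alone or the compared groups alone. In E8wMB minus P8w Cy5 alone gave 3, in E8wMB minus E8w median centring gave 1 and a slide random block or a replicate block 2, and in E8wMB minus E8w1B the other probe gave 1 of 4 tested. P8w minus P10d gave 1 with Cy5 alone. The difference between durations gave 0 with median centring, the other probe or slide as a block and 1 with the scanner log ratio or the compared groups alone. Leaving out 1 array gave 0 to 1 calls at 10 days, 0 to 1 in E8w minus P8w, 3 to 5 in E8w1B minus P8w, 1 to 3 in E8w1B minus E8w, 0 to 1 in E8wMB minus P8w, 1 to 3 in E8wMB minus E8w, 3 to 4 in E8wMB minus E8w1B, 0 to 0 in P8w minus P10d and 1 to 3 for the difference between durations. Among values called with ratios or with Cy5 alone, the sign turned with Cy5 alone for Hspa1a in E8wMB minus P8w (-0.88) and E8wMB minus E8w (-0.011), and for Hspe1 in E8wMB minus P8w, E8w and E8w1B (1.39, 1.39 and 1.53). The causes were not tested. Of 183 called single-gene values under settings other than leaving out an array, 150 kept their call and direction, 31 lost the call and 2 turned sign. Of 611 values not called, 20 changed sign under such a setting. Over all genes, median centring gave 369 calls at 10 days (1132 with loess), 11 in E8w minus P8w (24), 1218 in E8w1B minus P8w (2556), 1324 in E8w1B minus E8w (2600) and 155 for the difference between durations (518), and marked spots kept gave 41 in E8w minus P8w. Cy5 alone gave 7727, 8150 and 8128 for E8wMB minus P8w, E8w and E8w1B (3163, 3859 and 4581 with ratios) and 1279 for P8w minus P10d (239). Median centring moved the median of all genes to -0.11, -0.10 and -0.14 in the E8wMB comparisons. Slide as a block could not be fitted for the E8wMB comparisons and P8w minus P10d. Groups of 3 to 5 arrays, marked spots and the lack of a dye swap limit these values.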
